A study of Mus musculus with 12 samples.

Results

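The cytochrome P450 genes of families 1 to 3 were followed in livers of mice on a fast-food diet, with and without a Cre vector aimed at hepatocyte PPARγ. Members were all genes annotated as protein-coding whose name was Cyp followed by 1, 2 or 3, a letter and a number, which gave 58 of the 54532 genes in the count tables. All mice were male PPARγ flox/flox animals that received 1 intraperitoneal AAV8 injection at 8 weeks of age. Those labelled KO received a vector carrying Cre under the hepatocyte-restricted thyroxine-binding globulin (TBG) promoter, and their littermates labelled WT received eGFP under the same promoter, so the WT animals were also floxed and also carried virus. Both then ate a diet with 21% fat by weight (42% of energy), 0.2% cholesterol and 34% sucrose, and drank water with 18.9 g/L glucose and 23.1 g/L fructose, for 2 or 5 months. Each of the 4 groups had 3 whole-liver RNA libraries, numbered 1 to 3 in the labels. Libraries from mice on an ordinary diet were not analysed here, so no comparison with a healthy liver was made. The labels do not say that each library came from a separate mouse, and the p-values below measure only the spread between these libraries. Values in a group are given in the order of replicates 1, 2 and 3.

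Cytochrome P450 enzymes are heme proteins of the endoplasmic reticulum that insert an oxygen atom into their substrates with electrons handed on by cytochrome P450 reductase. Families 1 to 3 clear drugs and other foreign compounds and also hydroxylate steroids, bile acids and fatty acids. In the liver they are made mainly by hepatocytes, many of them close to the central vein, and their genes answer to receptors for foreign compounds such as AHR, CAR and PXR, to HNF4A and to the sex-specific rhythm of growth hormone. Mouse subfamilies lie as tandem gene clusters with near-identical copies, so a read can fit more than 1 member.

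Total counts ran from 16367775 to 27452284 per library, and the 58 members held 1.63% to 2.19% of them. Pparg was counted at 38.8, 41.4 and 37.6 normalized CPM (counts scaled to the library's total, corrected by TMM) in the 2-month libraries labelled WT and 50.4, 66.5 and 52.0 in those labelled KO. In the 5-month libraries it was 36.9, 41.4 and 37.1 CPM (WT) and 86.5, 92.9 and 75.0 CPM (KO). The gene was therefore higher, not lower, where it was labelled deleted (edgeR log2 fold change 0.52 ± 0.11 (SE), adjusted p = 0.0309 at 2 months, and 1.15 ± 0.08, adjusted p = 2.57e-06 at 5 months). A count over the whole gene does not show whether the floxed exons were read, so it does not check the label, and groups are named by their labels throughout. Hepatocyte markers summed to 61280 to 71470 CPM (WT) and 78740 to 90070 CPM (KO) after 2 months of diet, then to 59850 to 66250 CPM (WT) and 80550 to 92290 CPM (KO) after 5 months. Most of this was Alb, and the other 6 markers summed to 19610 to 22590 CPM (WT) and 24190 to 26590 CPM (KO), then to 26020 to 27700 CPM (WT) and 28390 to 29680 CPM (KO). Of the 8 macrophage markers, 7 were lower in the libraries labelled KO at 5 months, and their sum was 1323 to 1531 CPM (WT) and 607 to 832 CPM (KO), while after 2 months it was 463 to 595 CPM (WT) and 476 to 577 CPM (KO). Stellate cell markers summed to 570 to 722 CPM (WT) and 430 to 446 CPM (KO) after 2 months, then to 627 to 775 CPM (WT) and 489 to 557 CPM (KO). Called lower under the KO label at 5 months were also 4 of 8 stellate cell and 4 of 7 endothelial markers. So were 2 of 3 neutrophil, 1 of 4 T and NK cell and 2 of 3 B cell markers. Called higher were 1 of 5 cholangiocyte, 1 of 3 erythroid and 1 of 7 hepatocyte markers. Of all genes tested, 9.51% were called lower and 8.9% higher at 5 months. At 2 months the calls in all these lists were 1 hepatocyte, 1 macrophage and 1 erythroid marker (higher) and 1 stellate cell marker (lower). Of all genes tested, 1.78% were called higher and 1.78% lower then. The part of these shifts in the results below was not tested, and in whole liver fewer cells of a type and less RNA per cell cannot be told apart. Whether the 2-month and 5-month libraries were prepared and sequenced together is not stated, so time and batch cannot be told apart.

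Shared sequence was measured first, because it decides how far counts of single members can be read. Of the transcript stretches of 50 bases that a member holds, the share also present in another annotated gene was above 20% in 18 of the 58 members and below 5% in 26, and for stretches of 100 bases it was above 20% in 3 members and below 5% in 41. The highest shares were in the Cyp2c40 cluster, with 60.3% of 50-base stretches in Cyp2c40, 52.8% in Cyp2c67 and 43.3% in Cyp2c68. Cyp2a4 and Cyp2a5 shared 38% and 37% of theirs, and Cyp2d10 shared 35.8%, mostly with Cyp2d11. Little was shared by Cyp2c29 (4.25%), Cyp1a2 (4.79%) and Cyp2e1 (3.87%), and none by Cyp2c70, Cyp2c23 and Cyp2f2.

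**Figure D1:**
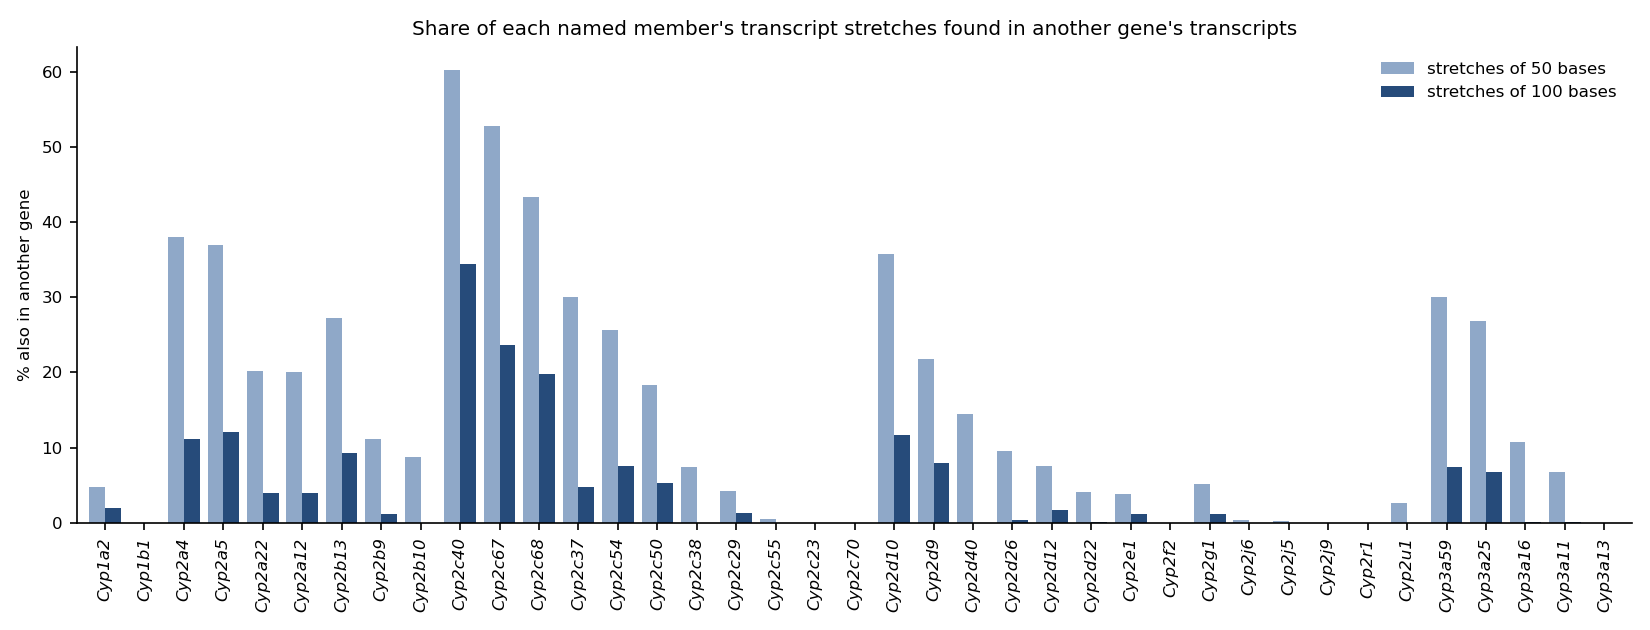
Share of the distinct transcript stretches of 50 (light) and 100 (dark) bases of each of the 39 members named in the text that also occur in transcripts of another gene (vertical axis, percent; GENCODE M21). Bars are tallest in the Cyp2c40, Cyp2a4 and Cyp2d10 groups and near 0 for Cyp2c70, Cyp2f2 and Cyp2j9.

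The coding sequences of Cyp2a4 and Cyp2a5 were 98.4% identical, the most alike pair, with 23 mismatches over 1482 bases. Their coding bases 697 to 786 (mm10 transcripts, 5′ to 3′, mismatches in capitals) show why some reads fit both genes.
Cyp2a4: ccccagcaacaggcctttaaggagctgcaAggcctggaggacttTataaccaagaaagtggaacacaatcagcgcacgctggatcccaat
Cyp2a5: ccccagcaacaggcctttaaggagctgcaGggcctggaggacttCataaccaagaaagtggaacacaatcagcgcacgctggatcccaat
Within the Cyp2c40 cluster, Cyp2c67 and Cyp2c68 were 97.1% identical, and their coding bases 692 to 781 held 2 mismatches, again in capitals.
Cyp2c67: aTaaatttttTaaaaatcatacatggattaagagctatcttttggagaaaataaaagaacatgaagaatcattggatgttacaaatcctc
Cyp2c68: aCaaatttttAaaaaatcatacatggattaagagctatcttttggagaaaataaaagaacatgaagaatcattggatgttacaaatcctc
Further pairs of high identity were Cyp3a25 with Cyp3a59 (97.5%), Cyp2a12 with Cyp2a22 (97.0%), Cyp2c37 with Cyp2c50 (96.1%), Cyp2c50 with Cyp2c54 (95.2%), Cyp2d10 with Cyp2d11 (94.7%) and Cyp2b9 with Cyp2b13 (92.7%). How the authors counted reads that fit several genes is not given in the sources used here, so values of single members in these pairs are uncertain, and subfamily sums are given as well. Exons of Cyp2u1 and Cyp2f2 also overlapped antisense genes over 10.5% and 13.5% of their bases, and without stated strand counting those reads cannot be told apart.

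Per kilobase of transcript, the highest member was Cyp2e1, which oxidizes ethanol and acetaminophen, at a mean of 2768 CPM per kb in the libraries labelled WT at 2 months and 1805 in those labelled KO at 5 months. Cyp3a11, the main hepatic enzyme of its subfamily, ranked second over the 4 groups, and Cyp2c29 followed. In raw share, Cyp2e1 led the family in 9 libraries, and Cyp3a11 led it in the 3 labelled WT at 5 months, where it held 32.7%, 36.1% and 34.7% of all member CPM. No count was found in any library for Cyp2j13, Cyp2w1, Cyp2c66, Cyp2j12 and Cyp2j7, and 7 more members never reached 10 counts in a library (Cyp2b19, Cyp2b23, Cyp2c65, Cyp2c69, Cyp2j8, Cyp2j11 and Cyp3a44). Enough counts for a test in at least 1 comparison were present in 42 members, including Cyp1a1, Cyp2c39 and Cyp2d11, which stayed below 10 CPM on average and were called nowhere. Cyp2d34, Cyp2s1, Cyp2t4 and Cyp3a57 reached 10 to 41 counts in their highest library and were tested nowhere.

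Summed over all 58 members, the level did not separate the genotypes. It was 21681, 15016 and 15755 CPM (WT) and 20043, 20620 and 19589 CPM (KO) after 2 months of diet, then 21678, 19228 and 18714 CPM (WT) and 20184, 20082 and 18594 CPM (KO). The subfamilies under this total moved in different directions, and the groups overlapped in the total at both times. The Cyp2c sum was 2300 ± 775 CPM (SD, n = 3) under WT, 4720 ± 539.7 under KO after 2 months of diet, then 2753 ± 295 under WT and 4714 ± 84.9 under KO. The Cyp3a sum went the other way, at 3418 ± 323 (WT) and 2755 ± 125 CPM (KO), then 7798 ± 316 (WT) and 3983 ± 826 CPM (KO). Most of that shift was Cyp3a11, with means of 2409 (WT) and 1742 CPM (KO), then 6835 (WT) and 3033.5 CPM (KO). Of the Cyp3a members tested, 2 of 4 had a positive log2 fold change at 2 months and 1 of 5 at 5 months. Cyp2d sums were 2726 ± 492 (WT) and 3635 ± 304 CPM (KO), then 2264 ± 162 (WT) and 3024 ± 251 CPM (KO), and neither pair of groups overlapped. Sums of Cyp2j, at 634 ± 51.7 (WT) and 735 ± 10.0 CPM (KO), then 682 ± 31.5 (WT) and 772 ± 20.7 CPM (KO), did not overlap either. Cyp2a sums were 1282 ± 31.4 (WT) and 1411 ± 313 CPM (KO), overlapping, then 1001 ± 62.2 (WT) and 1944 ± 488 CPM (KO) without overlap. Cyp2b sums were 103 ± 95.1 (WT) and 93.7 ± 107 CPM (KO), overlapping, then 60.8 ± 5.98 (WT) and 206 ± 38.3 CPM (KO) without overlap. These 2 sums also followed their leading members, with 5-month means of 301 (WT) and 1249 CPM (KO) for Cyp2a5. Those of Cyp2b9 were 49.9 (WT) and 153 CPM (KO). At 5 months 2 of 4 Cyp2a and 3 of 3 Cyp2b members tested had a positive log2 fold change.

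**Figure D2:**
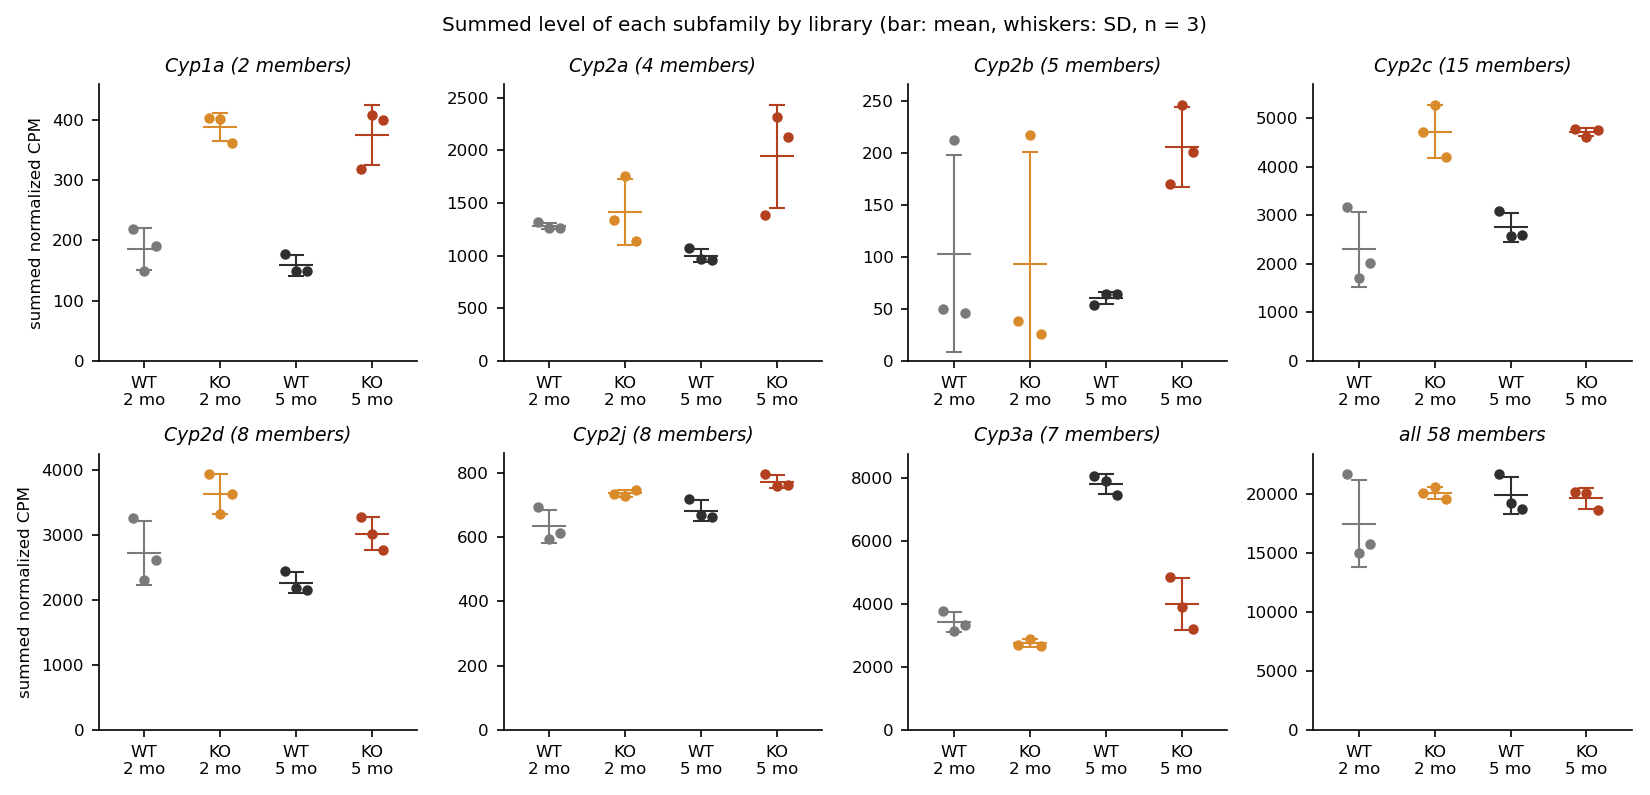
Summed normalized CPM of the members of 7 subfamilies and of all 58 members (vertical axes, from 0) in each library, as points by group, with the mean and SD (n = 3; whiskers are cut at 0). Cyp1a, Cyp2c and Cyp2d lie higher and Cyp3a lower in the libraries labelled KO at both times, while the total overlaps between genotypes.

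The first comparison asked which members differed between genotypes at each time, the second how each genotype changed between the times. At 2 months, 5 of 40 members tested passed the threshold (edgeR quasi-likelihood F-test, Benjamini-Hochberg adjusted p below 0.05), against 3.56% of all 14573 genes tested. Of these, 4 were higher in the libraries labelled KO (Cyp1a2, Cyp2c29, Cyp2d40 and Cyp2d12; 1.78% of all genes were called higher) and Cyp3a11 was lower (1.78% of all genes were called lower). With the replicate number as a block, 9 members passed: Cyp3a11 then missed it (adjusted p = 0.0523), and Cyp2c67, Cyp2d9 and Cyp2d10 (higher) and Cyp2a22 and Cyp2c38 (lower) were added. The count rested on single libraries: 18 members passed without replicate 1 labelled WT, 2 without replicate 2 or 3 labelled WT or replicate 1 labelled KO, and 3 without replicate 2 or 3 labelled KO. The 3.56% of all genes belongs to the main fit. Shares of all genes in the altered fits are not given here, so their counts are not read as particular to the members. At 5 months, 18 of 41 members tested passed, against 18.4% of all 14138 genes, 16 of them higher (8.9% of all genes) and 2 lower (9.51%). The groups did not overlap in 19 members at 2 months and 24 at 5 months, where 24.1% and 34.9% of all genes tested did not. The median log2 fold change of the members tested was 0.29 at 2 months and 0.28 at 5 months, and that of all genes was within 0.01 of 0 at both times.

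Between 2 and 5 months of diet, 14 of 40 members tested changed in the libraries labelled WT (9 higher, 5 lower at 5 months), against 46.4% of all genes tested (23.8% higher, 22.7% lower). In the libraries labelled KO, 15 of 41 changed (6 higher, 9 lower), against 44.9% of all genes (22.7% higher, 22.2% lower). The members' shares lay below the background in both. The times did not overlap in 14 members under the WT label and 20 under the KO label, where 56.8% and 55.6% of all genes tested did not. For the change of the genotype difference between the times, edgeR called none of the 42 members tested (1.57% of all genes were called, 0.661% higher and 0.912% lower). In the same edgeR test 12 members had an unadjusted p below 0.05, and DESeq2 called Cyp2a4, Cyp2a5 and Cyp3a11. The 1.57% does not apply to these 2 counts, and the shares of all genes under their rules are not given here. Comparisons that share a group of libraries are not independent, and their values are given side by side.

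**Figure D3:**
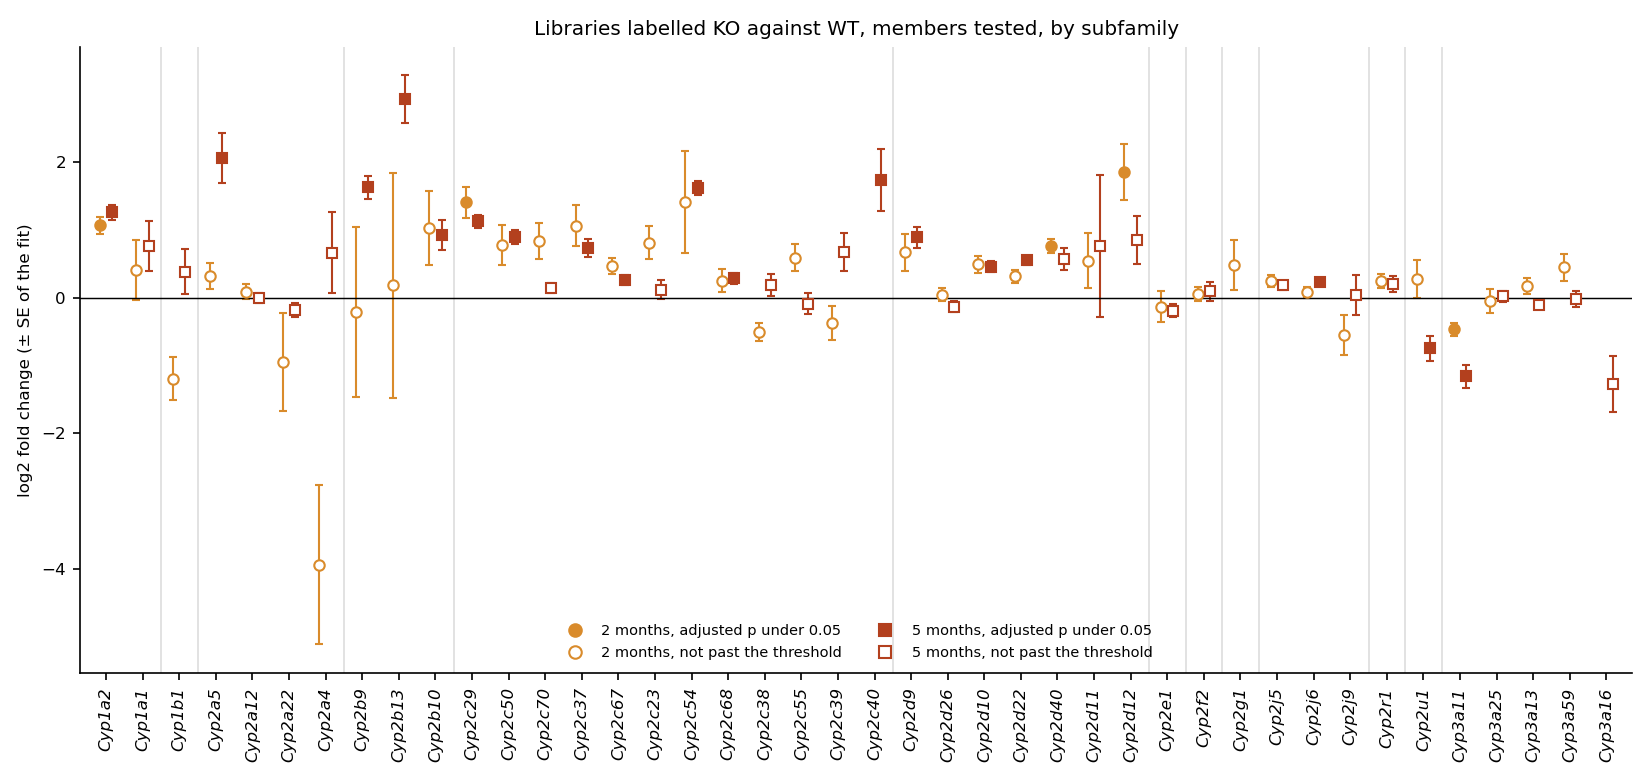
Log2 fold change of libraries labelled KO against those labelled WT (vertical axis, ± SE of the fit) for each member tested, by subfamily, at 2 months (circles) and 5 months (squares), filled where the adjusted p was below 0.05. Most filled symbols lie above 0, with Cyp3a11 at both times and Cyp2u1 at 5 months below it.

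In family 1, Cyp1a2, a pericentral enzyme known for the metabolism of caffeine and aromatic amines and a target of the aryl hydrocarbon receptor, was about double in the libraries labelled KO. It lies on mm10 chromosome 9, 57676937 to 57683703. Its level was 218, 148 and 188 CPM in 2-month libraries labelled WT, 402, 399.7 and 360 CPM in those labelled KO, and 177, 148 and 148 (WT) and 317, 406 and 399 CPM (KO) in the 5-month libraries. Every library labelled KO lay above every library labelled WT, with a log2 fold change of 1.06 ± 0.13 (SE, adjusted p = 0.00549) at 2 months and 1.26 ± 0.11 (adjusted p = 2.12e-05) at 5 months. This call held under all 16 alternative settings at 2 months and all 15 at 5 months. Among these, an adjusted p below 0.1 and an unadjusted p below 0.05 with a 1.3-fold change reused the main fit and could not end it. Over time Cyp1a2 missed the threshold in both genotypes (adjusted p = 0.198 and 0.679). The most inducible gene of the subfamily, Cyp1a1, stayed at 11 to 40 counts per library, and its log2 fold changes of 0.41 ± 0.44 and 0.77 ± 0.37 did not pass (adjusted p = 0.671 and 0.179). Cyp1b1, an estrogen hydroxylase found mostly outside the liver, was low, at 1.53, 1.65 and 2.33 CPM (WT, 2 months), 0.673, 0.684 and 1 CPM (KO, 2 months), 1.01, 2.27 and 1.98 CPM (WT, 5 months) and 1.51, 2.56 and 2.84 CPM (KO, 5 months). In the libraries labelled KO it was higher at 5 than at 2 months (log2 fold change 1.50 ± 0.33, adjusted p = 0.00362), with no overlap. Against the WT label it was lower at 2 months without passing (adjusted p = 0.0746). The 250 bases before the Cyp1a2 start (chr9:57683656-57683905, minus strand; RefSeq, GRCm38.p6) are shown because they hold a TATAAA, in capitals, but no GCGTG, the core of the site that AHR and ARNT bind.
Cyp1a2: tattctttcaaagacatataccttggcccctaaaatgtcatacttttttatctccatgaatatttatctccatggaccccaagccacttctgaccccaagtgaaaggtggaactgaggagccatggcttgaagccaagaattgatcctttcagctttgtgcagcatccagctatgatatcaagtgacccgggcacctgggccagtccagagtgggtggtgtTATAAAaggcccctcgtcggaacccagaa

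**Figure D4:**
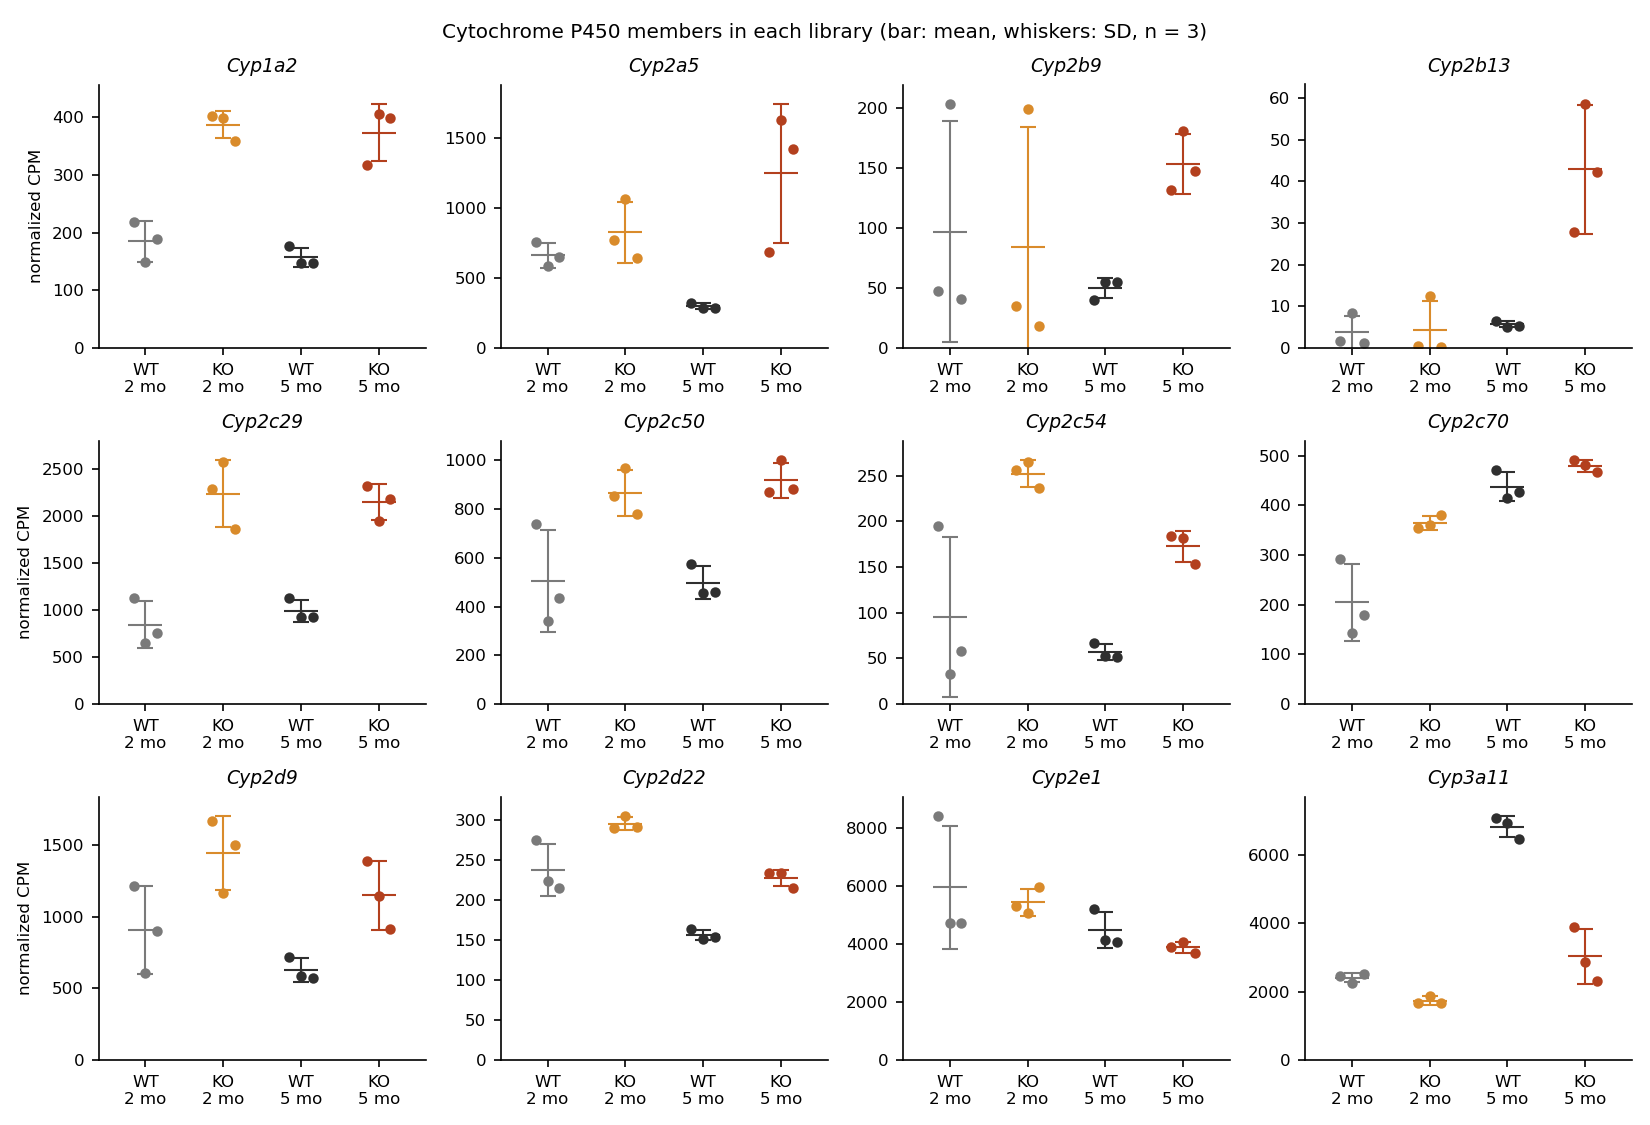
Normalized CPM (vertical axes, from 0) of 12 members in each library, as points by group, with the mean and SD (n = 3; whiskers are cut at 0). Cyp1a2, Cyp2c29 and Cyp2c50 are higher in every library labelled KO, Cyp2b9 is high in 1 library of each genotype at 2 months, and Cyp3a11 rises steeply in the libraries labelled WT.

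The Cyp2c subfamily, 15 members on chromosome 19, makes epoxides of arachidonic and linoleic acid and hydroxylates drugs and bile acids. At 2 months 1 of 11 members tested was called, and at 5 months 7 of 12, all of them higher in the libraries labelled KO. Of all genes tested, 1.78% were called higher at 2 months and 8.9% at 5 months. Cyp2c29, which CAR is known to induce, was the most abundant at 1128, 646 and 755 CPM (WT) and 2278, 2567 and 1857 CPM (KO) after 2 months of diet, then 1124, 923 and 924 CPM (WT) and 2311, 1939.5 and 2179.9 CPM (KO) after 5 months. The genotypes did not overlap at either time, and the log2 fold change was 1.41 ± 0.23 (adjusted p = 0.0237) at 2 months and 1.12 ± 0.10 (adjusted p = 8.12e-06) at 5 months. At 2 months this call was lost under 6 of 16 alternative settings, among them those without replicate 2 or 3 labelled WT or replicate 1 or 2 labelled KO, with adjusted p up to 0.0964, and at 5 months under none of 15. It did not pass over time in either genotype (adjusted p = 0.388 and 0.698).

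Cyp2c50, Cyp2c54 and Cyp2c37, neighbouring genes that encode epoxygenases of fatty acids, differed by genotype in the same direction. Cyp2c50 stood at 739, 341 and 436 CPM in 2-month libraries labelled WT, 852, 967 and 781 CPM in those labelled KO, and 576, 456 and 461 (WT) and 869, 1001 and 883 CPM (KO) in the 5-month libraries. Cyp2c54 stood at 195, 32.4 and 58.5 CPM (WT, 2 months), 256, 265 and 236 CPM (KO, 2 months), 66.7, 52.3 and 51.5 CPM (WT, 5 months) and 184, 181 and 153 CPM (KO, 5 months). In both genes replicate 1 labelled WT at 2 months was the highest of its group, at 195 CPM for Cyp2c54 beside 32.4 and 58.5, and it still lay below all 3 libraries labelled KO. At 5 months the log2 fold change was 1.61 ± 0.11 for Cyp2c54 (adjusted p = 5.41e-06) and 0.89 ± 0.10 for Cyp2c50 (adjusted p = 5.46e-05), and at 2 months neither passed (adjusted p = 0.422 and 0.246). In a fit of all 12 libraries the 5-month call of Cyp2c54 was lost (adjusted p = 0.104). Cyp2c37 stood at 265, 135 and 146 CPM (WT) and 339, 451 and 351 CPM (KO) after 2 months of diet, then 274, 216 and 204 CPM (WT) and 317, 415 and 412 CPM (KO) after 5 months, and its log2 fold change was 0.73 ± 0.14 at 5 months (adjusted p = 0.00802; 0.0525 with the block and 0.111 in the fit of all 12 libraries). At 2 months Cyp2c37 was not called by edgeR, while DESeq2 called it higher under the KO label (log2 fold change 1.06, adjusted p = 0.0432). In the libraries labelled KO, Cyp2c54 was lower at 5 than at 2 months (log2 fold change -0.55 ± 0.08, adjusted p = 0.000202; 0.453 in the fit of all 12 libraries). Cyp2c50 and Cyp2c37 missed the threshold over time in both genotypes, and with the block Cyp2c37 passed under the WT label (adjusted p = 0.0324).

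Cyp2c70, the mouse enzyme that makes muricholic acids from other bile acids, passed the edgeR test over time and not between genotypes. It stood at 292, 144 and 179 CPM in 2-month libraries labelled WT, 354, 361 and 381 CPM in those labelled KO, and 471, 415 and 426 (WT) and 490.5, 480.1 and 466 CPM (KO) in the 5-month libraries. It was higher at 5 months in the libraries labelled WT (log2 fold change 1.09 ± 0.27, adjusted p = 0.0195) and in those labelled KO (0.39 ± 0.06, adjusted p = 0.000288; 0.149 in the fit of all 12 libraries). At 2 months no library labelled WT reached the lowest one labelled KO. That difference did not pass by edgeR (adjusted p = 0.177), while DESeq2 called it (log2 fold change 0.84, adjusted p = 0.00134). Cyp2c55 followed the same course at a lower level, with 4.09, 3.86 and 4.46 CPM (WT, 2 months), 6.26, 7.64 and 4.87 CPM (KO, 2 months), 10.1, 9.38 and 9.97 CPM (WT, 5 months) and 9.15, 7.12 and 11.3 CPM (KO, 5 months). Its log2 fold change over time was 1.25 ± 0.15 in the libraries labelled WT (adjusted p = 8.53e-05) and 0.56 ± 0.20 in those labelled KO (adjusted p = 0.0457), where the 2 times overlapped. Cyp2c23, an epoxygenase of arachidonic acid, stood at 186, 94.7 and 130.2 CPM (WT) and 253, 248 and 219 CPM (KO) after 2 months of diet, then 182, 139 and 144 CPM (WT) and 180.1, 137 and 184 CPM (KO) after 5 months. It was lower at 5 than at 2 months in the libraries labelled KO (log2 fold change -0.53 ± 0.12, adjusted p = 0.00755; 0.0933 in the fit of all 12 libraries). At 2 months every library labelled KO lay above every one labelled WT. That difference was not called by edgeR, while DESeq2 called it (log2 fold change 0.81, adjusted p = 0.00108).

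The Cyp2c40 cluster holds the members with most shared sequence, and its abundant genes differed little between groups. Cyp2c67 stood at 171, 126 and 142 CPM in 2-month libraries labelled WT, 219, 184 and 204 CPM in those labelled KO, and 193, 179 and 171 (WT) and 227, 197 and 218 CPM (KO) in the 5-month libraries. Cyp2c68 stood at 103, 88.3 and 78.9 CPM (WT, 2 months), 91.9, 135 and 94.7 CPM (KO, 2 months), 109.6, 112 and 117 CPM (WT, 5 months) and 118, 152 and 139.7 CPM (KO, 5 months). At 5 months both were slightly higher in the libraries labelled KO, by 0.25 ± 0.07 (adjusted p = 0.0259) and 0.28 ± 0.08 (adjusted p = 0.0342) on the log2 scale, and in the libraries labelled WT both were higher at 5 than at 2 months, by 0.30 ± 0.11 and 0.33 ± 0.10 (adjusted p = 0.04 and 0.0178). The 5-month genotype calls were lost under 7 and 8 of 15 alternative settings. Cyp2c40 itself held 5 to 55 counts per library, at 0.491, 0.875 and 0.406 CPM (WT) and 0.259, 0.684 and 0.372 CPM (KO) after 2 months of diet, then 0.474, 0.291 and 0.783 CPM (WT) and 2.59, 0.923 and 1.7 CPM (KO) after 5 months. It was called higher in the libraries labelled KO at 5 months (log2 fold change 1.74 ± 0.46, adjusted p = 0.0181), and higher at 5 than at 2 months in the libraries labelled KO (2.01 ± 0.47, adjusted p = 0.00494). With 60.3% of its 50-base stretches shared, mostly with Cyp2c69, its counts could not be assigned to it alone. Cyp2c38, the last named member, stood at 88.6, 91.3 and 78.5 CPM in 2-month libraries labelled WT, 51.9, 74.1 and 55.9 CPM in those labelled KO, and 83.4, 69.5 and 76.7 (WT) and 65.6, 99.2 and 93.4 CPM (KO) in the 5-month libraries and passed in none of the comparisons. With the block it was lower under the KO label at 2 months (log2 fold change -0.52, adjusted p = 0.0137; 0.0115 by DESeq2) and higher at 5 than at 2 months under that label (0.50, adjusted p = 0.00365; 0.00403 by DESeq2). Cyp2c67 was higher under the KO label than under WT at 2 months with the block (0.47, adjusted p = 0.0103).

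Promoters of the cluster shared a motif. CAAAGTCCA, a core of the HNF4A site, was present on either strand in the 250 bases before the start in 8 of the 50 members with a promoter in RefSeq (16%) and in 0.381% of 27025 genes. The 8 were Cyp2c40, Cyp2c65, Cyp2c67, Cyp2c68, Cyp2c69, Cyp2c70, Cyp3a11 and Cyp3a16. TATAAA was found in 23 of the 50 (46%) and 13% of all genes, GCGTG in 8 (16%) and 28.2%, and 2 copies of AGGTCA set 1 base apart, the direct repeat that PPAR and RXR bind, in none of the 50 and 0.037% of all genes. A repeat this rare was unlikely to be found among any 50 genes, and only exact matches within the 250 bases were searched. Its absence therefore says nothing about PPAR binding. Near-identical copies make these promoters partly 1 sequence counted several times, and a match describes letters, not binding. The window of Cyp2c67 (chr19:39649043-39649292, minus strand) is shown with CAAAGTCCA and TATAAA in capitals.
Cyp2c67: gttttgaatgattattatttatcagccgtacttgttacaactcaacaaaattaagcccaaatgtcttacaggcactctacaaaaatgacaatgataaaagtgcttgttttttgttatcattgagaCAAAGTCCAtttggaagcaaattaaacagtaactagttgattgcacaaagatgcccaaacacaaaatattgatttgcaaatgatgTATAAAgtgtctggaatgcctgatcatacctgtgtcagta
Cyp2d22, Cyp2c23, Cyp2d12, Cyp2d34, Cyp2u1, Cyp2j7, Cyp2g1 and Cyp2c54 had no entry.

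The Cyp2d subfamily on chromosome 15, the mouse counterpart of the drug-metabolizing human CYP2D6, had mostly positive fold changes in the libraries labelled KO. All 7 members tested had a positive log2 fold change at 2 months, 2 of them called, and 6 of 7 at 5 months, 3 of them called. Over all genes tested, 1.78% were called higher at 2 months and 8.9% at 5 months, and the median log2 fold change was -0.005 and -0.006. Cyp2d9, a male-predominant testosterone hydroxylase, stood at 1216, 604 and 901 CPM (WT, 2 months), 1668, 1162 and 1499.6 CPM (KO, 2 months), 722, 584 and 570.1 CPM (WT, 5 months) and 1391, 1141 and 912 CPM (KO, 5 months). The genotypes overlapped at 2 months (adjusted p = 0.263; 0.0104 with the block) and not at 5 months (log2 fold change 0.89 ± 0.16, adjusted p = 0.00631). Cyp2d10 stood at 649.7, 489.7 and 493 CPM (WT) and 843, 709.5 and 744 CPM (KO) after 2 months of diet, then 578, 620 and 545 CPM (WT) and 854, 753 and 767 CPM (KO) after 5 months, without overlap at either time. Its log2 fold change was 0.49 ± 0.12 at 2 months (adjusted p = 0.0623; 0.0198 with the block) and 0.46 ± 0.08 at 5 months (adjusted p = 0.00127). Cyp2d22, the member often set beside human CYP2D6, stood at 275, 224 and 215 CPM in 2-month libraries labelled WT, 291, 305 and 291 CPM in those labelled KO, and 164, 151 and 154 (WT) and 233, 234 and 215 CPM (KO) in the 5-month libraries. It was higher in the libraries labelled KO at 5 months (log2 fold change 0.55 ± 0.06, adjusted p = 8.98e-05) and lower at 5 than at 2 months in both genotypes (-0.61 ± 0.10 under the WT label, adjusted p = 0.000681, and -0.38 ± 0.06 under the KO label, adjusted p = 0.000362), with no overlap in any of the 3.

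Cyp2d40 stood at 80.7, 87.3 and 98.7 CPM (WT, 2 months), 166, 155 and 131 CPM (KO, 2 months), 86.8, 62.1 and 63.8 CPM (WT, 5 months) and 92.2, 99 and 121 CPM (KO, 5 months). It was higher in the libraries labelled KO at 2 months (log2 fold change 0.76 ± 0.11, adjusted p = 0.00767). At 5 months it just missed the threshold by edgeR, without overlap (0.57 ± 0.16, adjusted p = 0.0519; 0.098 with the block and 0.000124 by DESeq2). Under the KO label it was lower at 5 than at 2 months (-0.53 ± 0.13, adjusted p = 0.0111). Cyp2d26, the highest of the subfamily per kilobase of transcript (a mean of 488 CPM per kb over the 4 groups, with Cyp2d10 at 407 and Cyp2d9 at 388), stood at 1043, 897 and 902 CPM (WT) and 969.8, 997 and 966 CPM (KO) after 2 months of diet, then 897, 766 and 821 CPM (WT) and 697, 793 and 755 CPM (KO) after 5 months. Only its change over time under the KO label passed (log2 fold change -0.39 ± 0.07, adjusted p = 0.000625). Cyp2d12 held 5, 9 and 8 counts in the libraries labelled WT and 37, 23 and 27 in those labelled KO at 2 months, which is 0.273, 0.463 and 0.406 and 1.91, 1.31 and 1 CPM (log2 fold change 1.85 ± 0.41, adjusted p = 0.0386). At 5 months it stood at 0.948, 0.816 and 0.47 against 1.51, 1.13 and 1.32 CPM. The 2-month call was lost under 7 of 15 alternative settings, with adjusted p up to 0.221. Cyp2d11 and Cyp2d34 had their highest counts, 112 and 41, in the same library, replicate 1 labelled KO at 5 months, where the other libraries held 5 to 74 and 0 to 8.

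Subfamily Cyp2b on chromosome 7 holds Cyp2b10, the classical target of CAR, and Cyp2b9 and Cyp2b13, which are known as female-predominant genes kept low in male liver. None of the 3 members tested was called at 2 months and all 3 were called higher in the libraries labelled KO at 5 months (8.9% of all genes tested). Cyp2b9 stood at 47, 203 and 40.7 CPM in 2-month libraries labelled WT, 34.8, 199 and 18.3 CPM in those labelled KO, and 40.3, 54.8 and 54.6 (WT) and 132, 180.2 and 147 CPM (KO) in the 5-month libraries. At 2 months the replicate numbered 2 was the highest of both genotypes, at 203 and 199 CPM beside 18.3 to 47.0 in the other 4 libraries, so the 2-month groups overlapped (adjusted p = 0.954). At 5 months the 3 libraries labelled WT lay below the 3 labelled KO, with a log2 fold change of 1.62 ± 0.16 (adjusted p = 0.000877). Cyp2b13 stood at 1.64, 8.39 and 1.27 CPM (WT, 2 months), 0.466, 12.5 and 0.335 CPM (KO, 2 months), 6.51, 5.13 and 5.38 CPM (WT, 5 months) and 27.7, 58.6 and 42.3 CPM (KO, 5 months). The same libraries numbered 2 were the high ones at 2 months, and at 5 months its log2 fold change was 2.93 ± 0.35 (adjusted p = 0.00574), the highest of the calls between genotypes. Cyp2b10 was low, at 1.47, 1.7 and 4.72 CPM (WT) and 2.74, 6.5 and 6.85 CPM (KO) after 2 months of diet, then 7.05, 4.08 and 4.38 CPM (WT) and 10.9, 7.48 and 10.8 CPM (KO) after 5 months, with a log2 fold change of 0.93 ± 0.22 at 5 months (adjusted p = 0.0131). In a fit of all 12 libraries none of the 3 passed at 5 months (Cyp2b9 adjusted p = 0.324, Cyp2b13 0.115, Cyp2b10 0.221).

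The windows before the starts of Cyp2b9 (chr7:26173159-26173408, plus strand) and Cyp2b13 (chr7:26061245-26061494, plus strand) are shown as the most alike pair within a subfamily (99.2% identical). They differed at 2 of 250 bases, in capitals, more alike than their coding sequences. Whether this bears on the levels of the 2 genes was not tested.
Cyp2b9: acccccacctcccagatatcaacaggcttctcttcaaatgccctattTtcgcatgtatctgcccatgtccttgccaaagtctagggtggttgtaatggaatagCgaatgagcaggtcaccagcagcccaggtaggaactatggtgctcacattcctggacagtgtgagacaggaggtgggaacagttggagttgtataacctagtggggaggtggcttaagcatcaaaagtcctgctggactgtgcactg
Cyp2b13: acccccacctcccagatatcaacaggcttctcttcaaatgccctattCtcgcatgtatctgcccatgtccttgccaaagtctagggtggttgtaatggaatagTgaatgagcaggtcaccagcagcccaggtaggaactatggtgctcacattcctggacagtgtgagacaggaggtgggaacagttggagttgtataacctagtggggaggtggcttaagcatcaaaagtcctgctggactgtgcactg
Of the 50-base stretches, 11.2% of Cyp2b9 and 27.3% of Cyp2b13 occurred in another gene, and of the 100-base stretches 1.18% and 9.29%. At both lengths the gene that shared the most was Cyp2b13 for Cyp2b9, but Gm45225 for Cyp2b13.

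In subfamily Cyp2a, also on chromosome 7, Cyp2a5, the coumarin hydroxylase of mouse liver, fell over time under the WT label and was high under the KO label at 5 months. It stood at 759, 584 and 649 CPM in 2-month libraries labelled WT, 771, 1069 and 641 CPM in those labelled KO, and 324, 289 and 289 (WT) and 689, 1634 and 1424 CPM (KO) in the 5-month libraries. The libraries labelled WT at 5 months were the lowest of all 12, and the change from 2 months was -1.14 ± 0.11 on the log2 scale (adjusted p = 2.04e-05). At 5 months the log2 fold change between genotypes was 2.06 ± 0.37 (adjusted p = 0.0262), with replicate 1 labelled KO at 689 CPM beside 1634 and 1424, and at 2 months it was 0.32 ± 0.19 (adjusted p = 0.438). The 5-month call was lost under 7 of 15 alternative settings, among them those without any 1 of the libraries labelled WT or without replicate 2 or 3 labelled KO, with adjusted p up to 0.114. The difference between the times was 1.74 ± 0.43 (adjusted p = 0.0963 by edgeR, 0.00285 by DESeq2). Cyp2a4, a female-predominant steroid hydroxylase and the near copy of Cyp2a5, stood at 6.93, 86.4 and 69.4 CPM (WT, 2 months), 3, 5.93 and 2.05 CPM (KO, 2 months), 5.8, 6.93 and 5.53 CPM (WT, 5 months) and 3.4, 9.74 and 16 CPM (KO, 5 months). The values under the WT label at 2 months spread from 6.93 to 86.4 CPM, no comparison passed by edgeR (adjusted p = 0.195 between genotypes at 2 months), and the difference between the times was 4.59 ± 1.34 (adjusted p = 0.154). DESeq2 called this difference (adjusted p = 0.00655), the lower level under the KO label at 2 months (log2 fold change -3.89, adjusted p = 0.003) and the lower level at 5 months under the WT label (-3.15, adjusted p = 0.00206). Cyp2a12, a steroid hydroxylase, stood at 530.4, 532 and 519 CPM (WT) and 549.9, 644 and 489 CPM (KO) after 2 months of diet, then 721, 645 and 639 CPM (WT) and 675, 648 and 664 CPM (KO) after 5 months and was higher at 5 than at 2 months under the WT label (log2 fold change 0.34 ± 0.09, adjusted p = 0.00765). Cyp2a22 stood at 22.3, 61.6 and 26.8 CPM in 2-month libraries labelled WT, 12.9, 35.7 and 9.56 CPM in those labelled KO, and 21.6, 28.8 and 27.2 (WT) and 22.9, 23.7 and 21.7 CPM (KO) in the 5-month libraries and passed in none of the comparisons, though with the block it was lower under the KO label at 2 months (log2 fold change -1.01, adjusted p = 0.00959).

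Subfamily Cyp3a on chromosome 5 was led by Cyp3a11, the main mouse counterpart of human CYP3A4 and a target of PXR. Among the members tested, it alone was called lower under the KO label at both times. Its level was 2451, 2266 and 2508 CPM (WT, 2 months), 1661, 1881 and 1683 CPM (KO, 2 months), 7079.5, 6939.7 and 6485 CPM (WT, 5 months) and 3910, 2883 and 2307 CPM (KO, 5 months). The genotypes did not overlap at either time, with a log2 fold change of -0.47 ± 0.09 at 2 months (adjusted p = 0.0268) and -1.16 ± 0.17 at 5 months (adjusted p = 0.00203). It was higher at 5 than at 2 months under both labels, by 1.50 ± 0.10 under WT (adjusted p = 3.07e-06) and 0.80 ± 0.20 under KO (adjusted p = 0.0213) on the log2 scale. The difference between these rises was -0.70 ± 0.20 and did not pass by edgeR (adjusted p = 0.096), while DESeq2 called it (adjusted p = 0.0185). The 2-month call was lost under 8 of 16 alternative settings, with adjusted p up to 0.149, and the 5-month call under 1 of 15, the fit without replicate 1 labelled WT (adjusted p = 0.0653). The 250 bases before its start (chr5:145879855-145880104, minus strand) hold CAAAGTCCA and TATAAA, in capitals.
Cyp3a11: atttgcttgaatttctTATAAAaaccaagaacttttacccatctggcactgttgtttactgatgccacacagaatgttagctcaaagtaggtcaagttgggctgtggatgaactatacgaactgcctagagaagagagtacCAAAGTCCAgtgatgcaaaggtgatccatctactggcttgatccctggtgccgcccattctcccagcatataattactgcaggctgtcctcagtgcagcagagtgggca

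Cyp3a16, known from fetal and newborn liver, was close to absent at 2 months, with 1, 4 and 0 counts under the WT label and none under the KO label. At 5 months it reached 49, 40 and 75 counts under WT and 46, 19 and 8 under KO, or 2.9, 2.33 and 3.91 and 2.17, 0.974 and 0.505 CPM. The rise under the WT label passed (log2 fold change 5.03 ± 0.57, adjusted p = 6.1e-05). The genotype difference at 5 months just missed the threshold by edgeR (-1.27 ± 0.41, adjusted p = 0.0564; 0.0593 with the block and 0.0145 by DESeq2). Of its 50-base stretches 10.7% were shared, mostly with Cyp3a11, which held 32101 to 124263 counts. Of its 100-base stretches 0.123% were shared. Cyp3a25 stood at 1114, 717 and 681 CPM (WT) and 834, 802 and 789 CPM (KO) after 2 months of diet, then 737, 696 and 708 CPM (WT) and 697, 787 and 668 CPM (KO) after 5 months and passed in none of the comparisons. Its near copy Cyp3a59 stood at 66.1, 47.9 and 41.9 CPM in 2-month libraries labelled WT, 70.8, 82.4 and 59.2 CPM in those labelled KO, and 73.2, 88.1 and 86.5 (WT) and 81, 93.1 and 68.3 CPM (KO) in the 5-month libraries and was higher at 5 months under the WT label (log2 fold change 0.67 ± 0.17, adjusted p = 0.0166). Cyp3a13, the most divergent gene of the subfamily and one expressed strongly in gut, stood at 141, 111 and 106 CPM (WT, 2 months), 123, 134 and 146 CPM (KO, 2 months), 165, 162 and 161 CPM (WT, 5 months) and 152, 145 and 152 CPM (KO, 5 months). It too was higher at 5 months under the WT label (log2 fold change 0.45 ± 0.10, adjusted p = 0.00538).

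**Figure D5:**
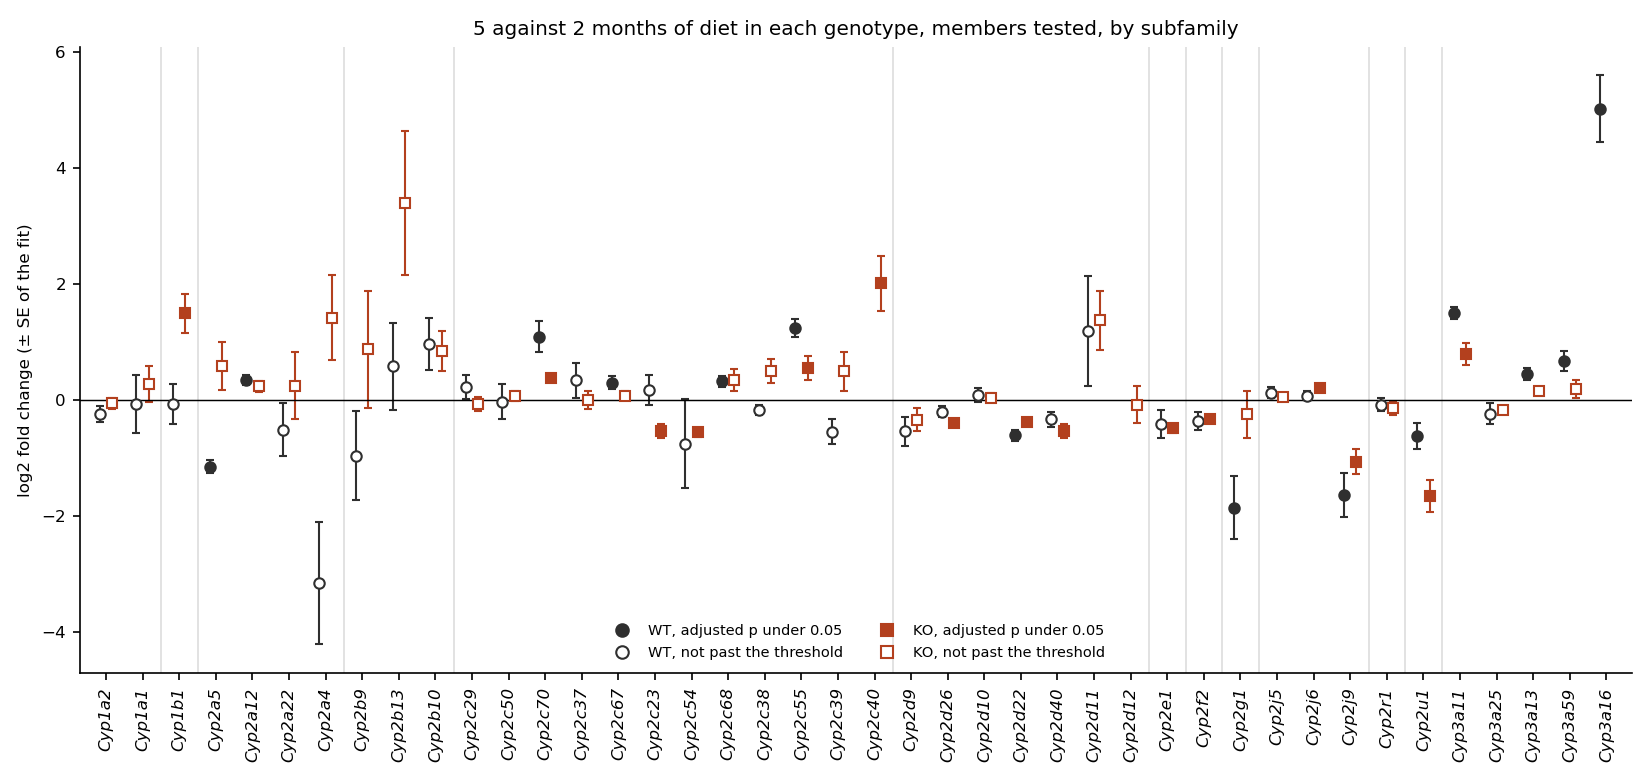
Log2 fold change of 5 against 2 months of diet (vertical axis, ± SE of the fit) for each member tested, by subfamily, in libraries labelled WT (circles) and KO (squares), filled where the adjusted p was below 0.05. Cyp3a11, Cyp2c70 and Cyp2c55 are filled above 0 and Cyp2d22, Cyp2j9 and Cyp2u1 below 0 under both labels.

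The remaining members stand alone or in small groups. Cyp2e1 stood at 8428, 4746 and 4746 CPM (WT) and 5304, 5069 and 5972 CPM (KO) after 2 months of diet, then 5209, 4154 and 4092 CPM (WT) and 3910, 4083 and 3696 CPM (KO) after 5 months. Replicate 1 labelled WT at 2 months was the highest of all 12 libraries, and the genotypes did not differ past the threshold at either time (adjusted p = 0.81 and 0.219). Under the KO label it was lower at 5 than at 2 months (log2 fold change -0.49 ± 0.08, adjusted p = 0.000452; 0.0659 in the fit of all 12 libraries). Cyp2f2, a periportal enzyme that oxidizes naphthalene, stood at 709, 861 and 893 CPM in 2-month libraries labelled WT, 842, 903 and 804 CPM in those labelled KO, and 812, 540.5 and 566 (WT) and 675, 691 and 663 CPM (KO) in the 5-month libraries, and it too was lower at 5 months under the KO label (-0.33 ± 0.06, adjusted p = 0.00147; 0.0571 in that fit). Under the WT label the log2 fold change over time was -0.42 for Cyp2e1 and -0.36 for Cyp2f2, and neither passed by edgeR. With the block Cyp2e1 passed there (adjusted p = 0.0343), and DESeq2 called Cyp2f2 (adjusted p = 0.0467). Their differences between the times were -0.07 and 0.03. Cyp2g1, a gene of the olfactory mucosa, held 2 to 24 counts per library, or 0.982, 0.566 and 0.558 CPM (WT, 2 months), 1.03, 1.03 and 0.893 CPM (KO, 2 months), 0.296, 0.117 and 0.157 CPM (WT, 5 months) and 0.377, 1.02 and 1.14 CPM (KO, 5 months). Its fall over time under the WT label passed (log2 fold change -1.86 ± 0.54, adjusted p = 0.0163), from 18, 11 and 11 counts to 5, 2 and 3.

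Of the 8 Cyp2j genes on chromosome 4, which encode epoxygenases of arachidonic acid, 3 were tested for a difference. Cyp2j5, the most abundant, stood at 588, 501 and 527 CPM (WT) and 641, 624 and 652 CPM (KO) after 2 months of diet, then 624, 577 and 571 CPM (WT) and 686, 653 and 659 CPM (KO) after 5 months. It did not overlap between genotypes at either time, and it missed the threshold at both by edgeR (adjusted p = 0.156 and 0.0815; 0.0912 and 0.0441 by DESeq2). Cyp2j6 stood at 86.6, 86.8 and 76.7 CPM in 2-month libraries labelled WT, 83.8, 94.1 and 85.9 CPM in those labelled KO, and 92, 86.1 and 85.5 (WT) and 106, 103 and 98.2 CPM (KO) in the 5-month libraries. Under the KO label it was higher than under WT at 5 months (log2 fold change 0.23 ± 0.06, adjusted p = 0.02) and higher than at 2 months (0.22 ± 0.06, adjusted p = 0.0182). Cyp2j9 stood at 17.5, 7.36 and 10.2 CPM (WT, 2 months), 8.59, 7.41 and 7.89 CPM (KO, 2 months), 2.43, 3.96 and 4.85 CPM (WT, 5 months) and 4.01, 2.51 and 5.05 CPM (KO, 5 months) and was lower at 5 than at 2 months under both labels (-1.63 ± 0.38 under WT, adjusted p = 0.0113, and -1.06 ± 0.22 under KO, adjusted p = 0.00235). Cyp2r1, the main hydroxylase that activates vitamin D in the liver, stood at 17.6, 14.8 and 17.2 CPM (WT) and 19, 20.4 and 19.2 CPM (KO) after 2 months of diet, then 16.1, 16.4 and 14.5 CPM (WT) and 15.4, 21.1 and 16.8 CPM (KO) after 5 months, with no call. Cyp2u1, which hydroxylates long-chain fatty acids, stood at 27.4, 15.7 and 20 CPM in 2-month libraries labelled WT, 31.2, 27.3 and 18 CPM in those labelled KO, and 16.7, 11.9 and 12.6 (WT) and 10, 6.05 and 8.14 CPM (KO) in the 5-month libraries. It was lower at 5 than at 2 months under both labels (-0.62 ± 0.22 under WT, adjusted p = 0.0475, where the times overlapped, and -1.65 ± 0.27 under KO, adjusted p = 0.00447). At 5 months it was also lower under the KO label (-0.75 ± 0.19, adjusted p = 0.0176). Reads of its antisense neighbour could not be told apart from its own.

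The genes that serve or control these enzymes were read from lists. Of 16 redox partners and enzymes of heme supply, none passed between genotypes at 2 months, while 5 were called higher and 2 called lower under the KO label after 5 months (8.9% and 9.51% of all genes; 3.56% were called at 2 months). Por, the reductase that all members depend on, did not pass (log2 fold change 0.02 ± 0.08, adjusted p = 0.887 at 5 months), nor did Alas1, the first enzyme of heme synthesis (-0.15 ± 0.08, adjusted p = 0.251). Cyb5r3, a cytochrome b5 reductase, was higher (0.49 ± 0.06, adjusted p = 0.000208) and cytochrome b5 itself, Cyb5a, was lower (-0.33 ± 0.08, adjusted p = 0.0115). The remaining calls were Cpox, Cyb5b, Pgrmc2 and Ppox (higher) and Alad (lower). Of 20 receptors and partners tested, none passed after 2 months of diet, and after 5 months 6 were called higher and 1 lower, against the same shares of all genes. Nr1i3, which encodes CAR, was higher (0.62 ± 0.12, adjusted p = 0.00302), as were Nr0b2, the corepressor SHP (1.12 ± 0.08, adjusted p = 2.57e-06), Ppara (0.45 ± 0.08, adjusted p = 0.00125), Hnf4a (0.28 ± 0.07, adjusted p = 0.0151), Arnt and Cebpb. Nfe2l2, a regulator of the oxidative stress response, was lower (-0.55 ± 0.06, adjusted p = 5.7e-05). Nr1i2, which encodes PXR, and Ahr did not pass at 5 months (adjusted p = 0.394 and 0.0698). The median log2 fold change was 0.18 over these 20 genes and 0.03 over the 16 redox and heme genes at 5 months.

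Because several members differ by sex or by zone of the lobule, lists of other genes of these kinds were set beside them. Of the male-biased genes outside the family, 1 of 14 was higher under the KO label at 2 months and 3 of 13 at 5 months (Susd4, Slco1a1 and Gstp1), none lower. Called or not, 13 of 14 had a positive log2 fold change at 2 months (median 0.78) and 9 of 13 at 5 months (median 0.27). Of the female-biased genes, 1 of 11 was higher and 2 lower at 2 months, and at 5 months 2 of 10 were higher (Prlr, 0.76 ± 0.15, adjusted p = 0.00909, and Fmo1, 0.37 ± 0.07, adjusted p = 0.0025). Positive log2 fold changes were found in 3 of 11 at 2 months (median -0.13) and 8 of 10 at 5 months (median 0.56). Among 7 regulators of the growth hormone response, Socs2 was lower at 5 months (-1.48 ± 0.19, adjusted p = 0.000171), Stat5a was lower at both times, and Ghr was higher at 5 months. Of 14 pericentral genes outside the family, 6 were higher and 1 lower at 5 months, with Glul, the enzyme of glutamine synthesis, at 0.51 ± 0.11 (adjusted p = 0.00926), and 1 was lower at 2 months. Of 12 periportal genes, 2 were called higher and 4 lower after 5 months of diet, and none after 2. These counts stand against 18.4% of all genes called at 5 months and 3.56% at 2 months, and the lists are read as counts only.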

How the data were processed

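Gene counts of 12 liver libraries (3 per group; NovaSeq) were used as deposited. The authors aligned reads to mm10; the study's methods name STAR and the submitters' processing notes HISAT2, and the counting program, annotation version and use of strand are not given in the sources used here. Raw counts were scaled by TMM, filtered with filterByExpr and tested gene by gene with the quasi-likelihood F-test of edgeR 4.0.16 in R 4.3.3 (limma 3.58.1), in a fit per comparison, with Benjamini-Hochberg adjustment over all genes tested and a threshold of 0.05. The difference between times was tested as an interaction over all 12 libraries. Scripts were tested on simulated data. Named were members called in any comparison or with a mean of at least 10 CPM. Members and gene lists were chosen with earlier results of these data known.

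Over the 5000 genes of highest count, deviations of same-numbered libraries correlated at 0.229, 0.348 and 0.128 at 2 months, above the set minimum of 0.1. Libraries of different number correlated at -0.297 to 0.132 there. Replicate 3 was thus not set apart, and pairing by number stays uncertain. The blocked fit is given where it changed a call at 2 months. Shared stretches, coding identity and overlaps came from GENCODE M21 (mm10), promoters from RefSeq (GRCm38.p6). DESeq2 1.42.0, other scalings and filters, 1 fit of all libraries and leaving out each library were alternatives. Depth limits members under 10 counts. No sample column was left unmapped (0).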

Additional observations from a re-analysis of the deposited data

How the results depend on the processing

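The count of members called between genotypes at 2 months depended most on the processing. Against 5 calls there were 12 with DESeq2, 12 with no filter on low counts, 9 with the replicate block, 16 at an unadjusted p below 0.05 with a 1.3-fold change, 9 at an adjusted p below 0.1, 10 in 1 fit of all 12 libraries, and 2 to 18 when a single library was left out. Shares of all genes called under these settings are not given here. The counts here and below are therefore not read as particular to the members. DESeq2 kept the 5 calls and added Cyp2c23, Cyp2c37, Cyp2c67, Cyp2c70 and Cyp2d10 (higher) and Cyp2a4 and Cyp2c38 (lower). With both libraries numbered 2 left out, an alternative chosen after seeing the data, 1 call remained. At 5 months the count of 18 came to 11 in the fit of all 12 libraries and stayed within 1.5 times under the others. The count of 0 for the difference between the times became 3 with DESeq2, 4 with no filter, 1 with the replicate block (Cyp2b9, log2 difference 2.13, adjusted p = 0.0334), 11 at the unadjusted p with a 1.3-fold change, 2 at an adjusted p below 0.1, and 0 to 3 without single libraries. The counts over time moved by less than 1.5 times in every alternative. Scaled by library size alone, the summed CPM of Cyp2a under the WT label at 2 months was 1350, that of Cyp2c under the KO label at 5 months 4511 and that of Cyp2j there 738.8, and the median of all genes shifted by less than 0.1 on the log2 scale. Of 52 calls of single members, 19 held under every alternative run, and over 780 repeats 665 kept the call, 115 lost it and 0 reversed. These totals include 52 repeats at an adjusted p below 0.1, which reused the main fit and could not end a call. The unadjusted p with a 1.3-fold change reused that fit too and could end only calls of smaller fold. Both are also among the alternative settings counted for single members. Outside 2 months the same-number correlations were not all above 0.1 (-0.0675, -0.0348 and -0.187 between genotypes at 5 months, 0.253, 0.203 and 0.0242 over time under WT, and -0.0193, 0.24 and -0.0133 under KO). The block then ended the 5-month calls of Cyp2a5 and Cyp2c37 and the time calls of Cyp2c55 (KO) and Cyp3a59 (WT). It added time calls of Cyp2c37, Cyp2c39, Cyp2d9 and Cyp2e1 under WT (adjusted p = 0.0324, 0.0352, 0.0283 and 0.0343) and of Cyp2c38, Cyp2c68 and Cyp3a59 under KO (0.00365, 0.0106 and 0.0409). The fit of all 12 libraries ended the 5-month calls of Cyp2u1, Cyp2b10, Cyp2b13, Cyp2b9, Cyp2c37, Cyp2c67, Cyp2c54, Cyp2d9 and Cyp2c68 (adjusted p from 0.0547 to 0.324), the 2-month call of Cyp3a11 (0.0569), the time calls of Cyp2u1 and Cyp2c68 under WT (0.087 and 0.0883) and those of Cyp2c23, Cyp2e1, Cyp2f2, Cyp2c70 and Cyp2c54 under KO (0.0571 to 0.453). Leaving out 1 library ended further calls: over time under WT, Cyp2c70 (without WT 2-month replicate 3 or 5-month replicate 1; adjusted p up to 0.0847), Cyp2g1 (2-month replicate 1, 5-month replicate 2 or 3; up to 0.0699), Cyp3a59 (replicate 2 of either time; up to 0.0575) and Cyp2u1 (up to 0.148); over time under KO, Cyp3a11 (2-month replicate 1 or 3, 5-month replicate 2; up to 0.0893), Cyp2d40 (5-month replicate 2; 0.0513), Cyp2c55 (up to 0.169) and Cyp2j6 (up to 0.076); between genotypes at 5 months, Cyp2c40 (WT replicate 2, KO replicate 1 or 3; up to 0.0935), Cyp2b10 (WT replicate 2 or 3, KO replicate 3; up to 0.221 over all alternatives), Cyp2u1 (KO replicate 3) and Cyp2j6 (up to 0.101). The causes were not tested.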

Other observations

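Outside the rule lay 26 rows with names of the same families: 23 pseudogenes, 11 of them at 0 in every library, and the coding genes Cyp2ab1, Cyp3a41a and Cyp3a41b, with at most 10 counts in a library. The Cyp2d pseudogenes reached levels of expressed members. Cyp2d37-ps held 3136, 3121 and 3235 counts (WT) and 3832, 3205 and 5859 counts (KO) after 2 months of diet, then 444, 722 and 776 counts (WT) and 1446, 1128 and 965 counts (KO). It was lower at 5 than at 2 months under both labels (edgeR log2 fold change -2.19 ± 0.17 under WT, adjusted p = 4.36e-05, and -1.68 ± 0.08 under KO, adjusted p = 2.87e-07) and higher under the KO label at 5 months (0.79 ± 0.18, adjusted p = 0.0306). Cyp2d38-ps showed the same course, at -1.86 ± 0.11 (adjusted p = 2.28e-06), -1.21 ± 0.09 (adjusted p = 4.07e-06) and 0.80 ± 0.12 (adjusted p = 0.000433), and its genotype difference was larger at 5 than at 2 months (log2 difference 0.64 ± 0.15, adjusted p = 0.0415). Cyp2d36-ps was lower at 5 months under the WT label (-2.70 ± 0.21, adjusted p = 1.34e-05). Cyp2c53-ps, whose exons overlap those of Cyp2c29, held 3, 2 and 0 counts under WT and 35, 31 and 14 under KO after 2 months, then 0 in each library under WT and 9, 1 and 7 under KO. Reads shared with coding members could not be told apart from those of the pseudogenes.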
